A study of Mus musculus with 2 samples.

Results

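Interferon regulatory factors are transcription factors that bind DNA through a tryptophan-rich helix-turn-helix domain, and the results below concern 8 genes of this family in resting mouse macrophages. The genes Irf1, Irf2, Irf3, Irf4, Irf5, Irf7, Irf8 and Irf9 were taken by name, and all 8 were found among the 21938 protein-coding genes of the GENCODE M21 annotation on 21 chromosomes. What was measured is trimethylation of lysine 4 of histone H3 (H3K4me3), a mark that collects on nucleosomes flanking the starts of active or poised genes and is typically broader at genes central to a cell's identity. Members of the family carry the signal from pattern recognition receptors to the interferon genes, answer the secreted interferon through the JAK-STAT pathway, or direct the formation of myeloid and lymphoid cells.

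The study comprised H3K4me3 ChIP-seq of bone marrow-derived macrophages, primary cells of the C57BL/6J strain that had received no stimulus, in 2 biological replicates and with no other group. The labels name no transgene or deletion, and age and sex were not recorded. Each library began with 10 ng of DNA. Both cell preparations carry the same mouse donor entry and the labels do not say whether they came from separate animals, so the spread between replicates may be technical.

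Peak lists were the only data analysed: 20031 peaks in replicate 1, 16376 in replicate 2, 18898 in a list from both libraries pooled and 16957 in a replicated list. Read counts were not among the values analysed, so the depth of each library is unknown. With 1 group there was no contrast to test, and all values are descriptive. The cell type label was checked against marker genes: 8 of 8 macrophage markers carried a peak at a start in both replicates, against 0 of 7 dendritic cell, 0 of 5 B cell, 1 of 5 T cell and 0 of 5 neutrophil and progenitor markers. Over all protein-coding genes, 49.5% carried a peak at a start in both replicates. The T cell marker was Lck, with a domain of 1548 ± 232 bp (SD, n = 2) and folds of 18.7 and 6.00. Zbtb46, a dendritic cell marker, and Cd34, a progenitor marker, had a peak in replicate 1 alone, with folds of 3.74 and 7.66.

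The promoters of the family range from CpG-poor to CpG-rich, and the upstream stretches of 3 members are shown because they span that range beside very different peaks. All 8 genes matched RefSeq promoters of the GRCm38.p6 (mm10) build, 11 sequences of 32851 in the table, each running from 250 bases before to 50 after a start. The stretches end where an annotated exon of a coding gene begins, are written 5′ to 3′ on the strand of the gene, and have each CG in capitals. The capital C that ends the Irf5 stretch has its G just beyond the stretch and is not counted below. Irf5 lies on the plus strand (chr6:29526375-29526624, 250 bases), Irf4 on the plus strand (chr13:30748983-30749225, 243 bases) and Irf7 on the minus strand (chr7:141266482-141266674, 193 bases).
Irf5: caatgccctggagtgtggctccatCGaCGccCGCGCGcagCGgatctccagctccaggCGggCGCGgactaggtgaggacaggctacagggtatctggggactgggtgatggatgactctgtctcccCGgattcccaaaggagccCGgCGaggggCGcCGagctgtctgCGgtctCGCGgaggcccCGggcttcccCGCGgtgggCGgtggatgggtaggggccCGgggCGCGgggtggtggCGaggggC
Irf4: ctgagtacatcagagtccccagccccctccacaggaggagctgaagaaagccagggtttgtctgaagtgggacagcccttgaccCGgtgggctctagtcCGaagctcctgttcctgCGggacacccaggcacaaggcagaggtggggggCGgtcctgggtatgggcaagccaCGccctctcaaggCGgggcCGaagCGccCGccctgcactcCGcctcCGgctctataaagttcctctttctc
Irf7: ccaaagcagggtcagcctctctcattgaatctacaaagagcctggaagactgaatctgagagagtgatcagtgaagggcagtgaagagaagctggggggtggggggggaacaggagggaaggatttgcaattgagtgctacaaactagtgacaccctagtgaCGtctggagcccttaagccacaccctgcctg
The Irf5 stretch held 25 CG, that of Irf4 held 11 and that of Irf7, the shortest of the 3, held 1. Over the whole promoter of 300 bases the counts were 35 at Irf5, 11 at Irf4 and 7 at Irf7. The median over all promoters was 7. Irf7 had the highest peak fold of the family and Irf4 the lowest, as set out below.

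Upstream stretches of a further 3 members are shown because they hold letters that match binding motifs of interferon-responsive factors. Capitals mark matches to the interferon-stimulated response element core (ISRE core, GAAANNGAA), the gamma-activated site (GAS, TTCNNNGAA), the composite of an ETS and an IRF site (GGAANNGAA) and the NF-kappaB site. All 3 lie on the plus strand: Irf1 at chr11:53769764-53770013, Irf2 at chr8:46739495-46739731 and Irf8 at chr8:120736108-120736357.
Irf1: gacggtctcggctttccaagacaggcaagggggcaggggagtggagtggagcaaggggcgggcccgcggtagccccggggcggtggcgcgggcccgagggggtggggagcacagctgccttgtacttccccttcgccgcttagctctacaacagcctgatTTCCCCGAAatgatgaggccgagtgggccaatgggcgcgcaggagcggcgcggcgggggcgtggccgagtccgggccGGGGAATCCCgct
Irf2: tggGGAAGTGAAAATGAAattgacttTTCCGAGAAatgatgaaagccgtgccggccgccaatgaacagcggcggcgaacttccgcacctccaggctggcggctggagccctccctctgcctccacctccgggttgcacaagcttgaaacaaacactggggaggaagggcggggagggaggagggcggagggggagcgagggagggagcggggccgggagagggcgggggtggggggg
Irf8: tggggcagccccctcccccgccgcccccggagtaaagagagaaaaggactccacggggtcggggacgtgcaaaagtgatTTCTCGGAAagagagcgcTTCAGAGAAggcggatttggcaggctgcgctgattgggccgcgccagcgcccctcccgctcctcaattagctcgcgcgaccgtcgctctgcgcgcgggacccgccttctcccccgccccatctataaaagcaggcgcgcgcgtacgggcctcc
In Irf2 the capitals of the first run join an ETS-IRF match and the ISRE core match, which overlap.

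All 8 genes were marked, meaning that a peak in each replicate's own list overlapped the window from 1000 bp before to 1000 bp after an annotated transcript start. Over all protein-coding genes 10869 of 21938 were marked, or 49.5%. The 8 genes were also marked in the pooled and in the replicated list. For each gene, peaks lying within 1000 bp of each other were joined into a domain, and the widest domain touching a start window was measured. Mean domain width over the replicates ran from 1806 bp at Irf4 to 4614 bp at Irf2, with a median over the 8 genes of 2692 bp. Marked genes as a whole had a median of 1946.5 bp and quartiles of 1430.5 and 2546.5 bp. By mean width, 7 of the 8 genes lay above that median and 6 above the upper quartile. Irf1, counted among the 6, was above the quartile of replicate 1, with 3311 bp against 2818 bp. In replicate 2 it was below, with 2133 bp against 2311 bp. A mean width of 4 kb or more was reached by 2 members, against 4.69% of all marked genes. Both rest on the joining: by the widest single peak touching a window, 0 members reached 4 kb, against 1.42% of marked genes.

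The height of a gene's mark is given by the fold of its highest peak touching a window, a ratio assigned by the authors to each peak whose reference level the lists do not state. The median fold over marked genes was 38.9 in replicate 1 and 14.9 in replicate 2, so folds were ranked within each list: the fold percentile of a gene is the share of the 10869 marked genes that it exceeds. The 8 genes had a median fold percentile of 84.6, averaged over the replicates, and 7 of them lay above the median of marked genes in both replicates. That count rests on taking the highest peak. By the peak nearest to the 5′ end, Irf1 fell below the median in replicate 2, at a percentile of 19.3, and Irf5 in both, at 29 and 26.8. Folds fall on discrete steps: the values of Irf3 and Irf8 in replicate 2 are the same, 20.6, a fold shared by 42 peaks of that list.

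Irf3, Irf7 and Irf5 act directly downstream of pattern recognition receptors. Irf3 is the latent cytosolic factor that is phosphorylated by TBK1 and first switches on Ifnb1. Its domain was a single peak of 2873 bp in replicate 1 (chr7:44996554-44999426) and 2449 bp in replicate 2, a mean of 2661 ± 300 bp (SD, n = 2). The fold was 51.4 and 20.6, a mean percentile of 83.3. The start of Bcl2l12, a coding gene on the opposite strand, lay 69 bp upstream of the 5′ end of Irf3, so this peak cannot be assigned to Irf3 alone. The domain reached 1094 bp and 977 bp upstream and included the start codon, in the second exon.

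Irf7, which is itself induced by interferon and amplifies the production of interferon-alpha, had the highest peak of the family. Its fold was 59.2 in replicate 1 and 24.8 in replicate 2, a mean percentile of 95.9. The domain was one of the narrower ones, 2325 bp (chr7:141264435-141266759) and 2111 bp, a mean of 2218 ± 151 bp (SD, n = 2), and it sat almost wholly in the gene body, with 88% and 90.1% of its length downstream of the 5′ end. It covered the first 6 of 10 exons of this compact gene, and 48% of its length in replicate 1 was exonic. All 11 annotated starts of Irf7 lay inside the domain in both replicates. Allowing gaps of up to 3000 bp raised the width to 5006 bp in replicate 1 and left it at 2111 bp in replicate 2, for a mean of 3558 bp.

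Irf5, the factor used by Toll-like receptors through MyD88 to drive inflammatory cytokine genes, had a domain of 4779 bp in replicate 1 (chr6:29525916-29530694) and 4280 bp in replicate 2. The mean was 4530 ± 353 bp (SD, n = 2), the 304th widest of the 10869 marked genes. Its fold was 51.9 and 22.3, a mean percentile of 87.3. The highest peak had its summit 1038 bp and 986 bp downstream of the 5′ end, in the first intron. In both replicates this peak also covered an annotated start of Irf5 other than the 5′ end. Of the 6 annotated starts of the gene, 4 lay in the domain. A separate, lower peak lay upstream, with folds of 22.4 and 7.96, and the 5′ end itself fell in the gap between these peaks, which was 321 bp long in replicate 1 and 393 bp in replicate 2. Ranked by the peak nearest to the 5′ end, Irf5 dropped to percentiles of 29 and 26.8. The width rests on joining: the widest single peak averaged 2897 bp, and the domain did not reach the start codon, 4512 bp from the 5′ end.

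Irf9, Irf1 and Irf2 belong to the response to interferon. Irf9 is the subunit that gives the ISGF3 complex its DNA specificity. Its domain was a single peak of 2864 bp (chr14:55602690-55605553) and 2364 bp, a mean of 2614 ± 354 bp (SD, n = 2), covering the first 3 of 10 exons. The fold of 40.4 and 16.4 was close to the median of marked genes in both replicates, at a mean percentile of 56.5.

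Irf1, an activator induced by interferon-gamma, differed most between the replicates in width. The domain was 3311 bp in replicate 1 (chr11:53769451-53772761) and 2133 bp in replicate 2, a mean of 2722 ± 833 bp (SD, n = 2), and the larger value was 1.55 times the smaller. Replicate 1 alone held a peak of 350 bp upstream of the 5′ end, with a fold of 4.48, and the main peak reached 2747 bp downstream there against 2109 bp in replicate 2. The highest fold was 52.1 and 21.7, a mean percentile of 86.3. In replicate 2 the peak at the 5′ end was a small one of fold 6.53, and the high peak began 443 bp downstream of that end.

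Irf2, which competes with Irf1 for the same sites and mostly represses, had the widest joined domain. It measured 4864 bp in replicate 1 (chr8:46738239-46743102) and 4363 bp in replicate 2, a mean of 4614 ± 354 bp (SD, n = 2), the 276th widest among marked genes. The domain joined 3 peaks in each replicate, the widest of which averaged 1809 bp. In replicate 2 that peak lay outside every start window, and the widest single peak touching a window averaged 1602 bp. From upstream to downstream the folds were 33.6, 52.9 and 45.8 in replicate 1 and 12.1, 21.1 and 16.5 in replicate 2, so the middle peak was the highest in both. The upstream peak reached 1493 bp and 1326 bp beyond the 5′ end, where the start of the lncRNA Gm16675 lies 217 bp upstream on the opposite strand, and the domain cannot be assigned to Irf2 alone. Downstream it stayed in the first exon and first intron, with the start codon 53767 bp away.

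Irf8 and Irf4 are the members best known as lineage factors, and they bind composite sites together with PU.1. Irf8, which directs monocyte and macrophage formation, had a domain of 4348 bp in replicate 1 (chr8:120735612-120739959) and 3414 bp in replicate 2, a mean of 3881 ± 660 bp (SD, n = 2). The fold was 49.7 and 20.6, a mean percentile of 81.1. A short gap of 56 bp and 129 bp separated a lower upstream peak, of fold 14.8 and 5.35, from the main peak, and the gap of replicate 2 held the 5′ end. The start codon, 3460 bp from the 5′ end, was inside the domain in replicate 1 only.

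Irf4, best known from lymphocytes, dendritic cells and alternatively activated macrophages, had the narrowest domain and the lowest fold. Its width was 1897 bp (chr13:30749158-30751054) and 1716 bp, a mean of 1806 ± 128 bp (SD, n = 2), just under the median of marked genes. Its fold was 20.4 in replicate 1 and 6.00 in replicate 2, at percentiles of 13 and 8.49. The ratio between the replicates was 3.39, against a median of 2.43 over the 8 genes and 2.56 over all marked genes. The mark began only 68 bp and 28 bp upstream of the 5′ end, and no other gene started within 10 kb.

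All 8 domains were wider in replicate 1 than in replicate 2, with a median ratio of 1.14 against 1.19 over all marked genes. In the order of widths, neighbouring genes were called apart where the ranges of their replicates did not overlap. These ranges include the shift between the replicates, so for overlapping pairs the order within each replicate is given too. Irf2 and Irf5 differed by 84 bp and overlapped, as did Irf5 and Irf8. Within each replicate Irf2 was wider than Irf5, and Irf5 was wider than Irf8. A step of 1159 bp with no overlap separated Irf8 from Irf1. Irf1, Irf3 and Irf9 followed within 61 bp and 47 bp of each other, and their ranges overlapped. Irf1 and Irf3 changed places between the replicates. Irf3 was wider than Irf9 in both, though barely so in replicate 1, with 2873 bp against 2864 bp. Irf7 lay 396 bp below Irf9 and Irf4 lay 412 bp below Irf7, each with no overlap. Irf7 did overlap Irf1, which is not its neighbour in this order: in replicate 2 they had 2111 bp and 2133 bp. The order of widths depends on the joining distance. Without joining Irf8 came first with 3176 bp, followed by Irf5 with 2897 bp and Irf3 with 2661 bp, and Irf2 came seventh with 1602 bp. With gaps of up to 3000 bp joined, Irf5 with 5974 bp passed Irf2 with 4614 bp, and Irf7 rose to the fourth place with 3558 bp. Both rises came from replicate 1 alone. Irf5 had 7669 bp there against 4864 bp at Irf2, but 4280 bp against 4363 bp in replicate 2. Irf7 had 5006 bp in replicate 1 but 2111 bp in replicate 2, where it stayed narrower than Irf1, Irf3 and Irf9. Irf4 was the narrowest under all 3 settings.

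The order by fold percentile was different. Irf7 stood 8.64 percentage points above Irf5 with no overlap. The ranges of Irf5, Irf1 and Irf2 overlapped from neighbour to neighbour, as did those of Irf3 and Irf8. Irf9 was 24.6 points below Irf8 and Irf4 a further 45.7 points below Irf9, and neither pair overlapped. Irf7 was thus highest by fold and, with peaks joined within 1000 bp, the seventh of the 8 genes by width, while Irf4 was last in both.

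**Figure D1:**
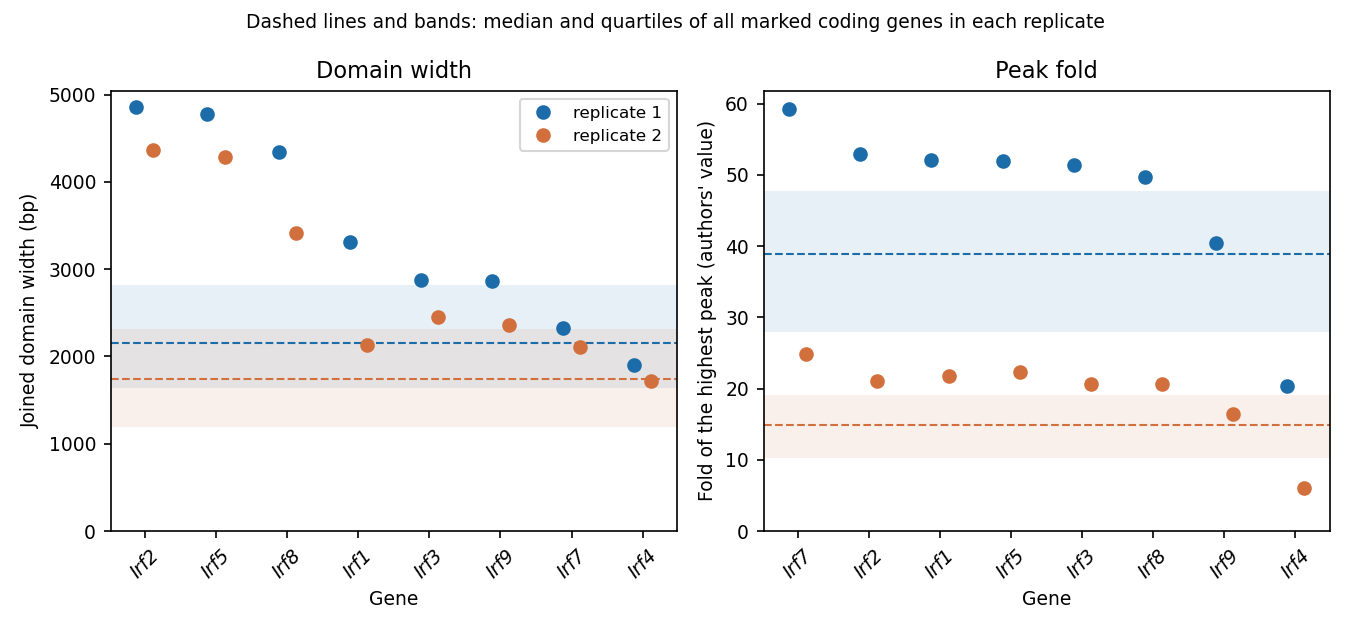
Left, joined domain width in bp, and right, fold of the highest peak as assigned by the authors, for each gene in replicate 1 (blue) and replicate 2 (orange), with dashed lines and bands for the median and quartiles of all marked coding genes in the same replicate. Irf2, Irf5 and Irf8 lie farthest above the band in width, Irf3 and Irf9 just above it in both replicates, and Irf4 lies below the band in fold in both.

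The CpG ratio, the number of CG dinucleotides over that expected from the C and G content in a window of 1000 bp each way from the 5′ end, divided the family. It was 0.74 at Irf1, 0.735 at Irf5, 0.655 at Irf8 and 0.65 at Irf2, all above the median of 0.624 for marked genes. Irf3 had a ratio of 0.569, and Irf4 one of 0.388. Irf9 and Irf7 were CpG-poor, with 0.265 and 0.262. In the tenth of all coding genes by CpG ratio that holds Irf7 and Irf9, 27.2% were marked, against 50.4% in the tenth of Irf4 and 79.9% in that of Irf1 and Irf5. With peaks joined within 1000 bp the 3 widest domains belonged to members with ratios of 0.65 or more, but without joining Irf3, with a ratio of 0.569, took the place of Irf2 among the 3 widest. The place of Irf3 depends on the window: over 500 bp each way its ratio was 0.74, above 0.735 at Irf8 and 0.698 at Irf2. Irf7, Irf9 and Irf4 stayed lowest there, with 0.319, 0.327 and 0.364. The highest fold belonged to the member with the lowest ratio in both windows. These are 8 genes read from the same libraries, and no relation between the measures was tested.

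**Figure D2:**
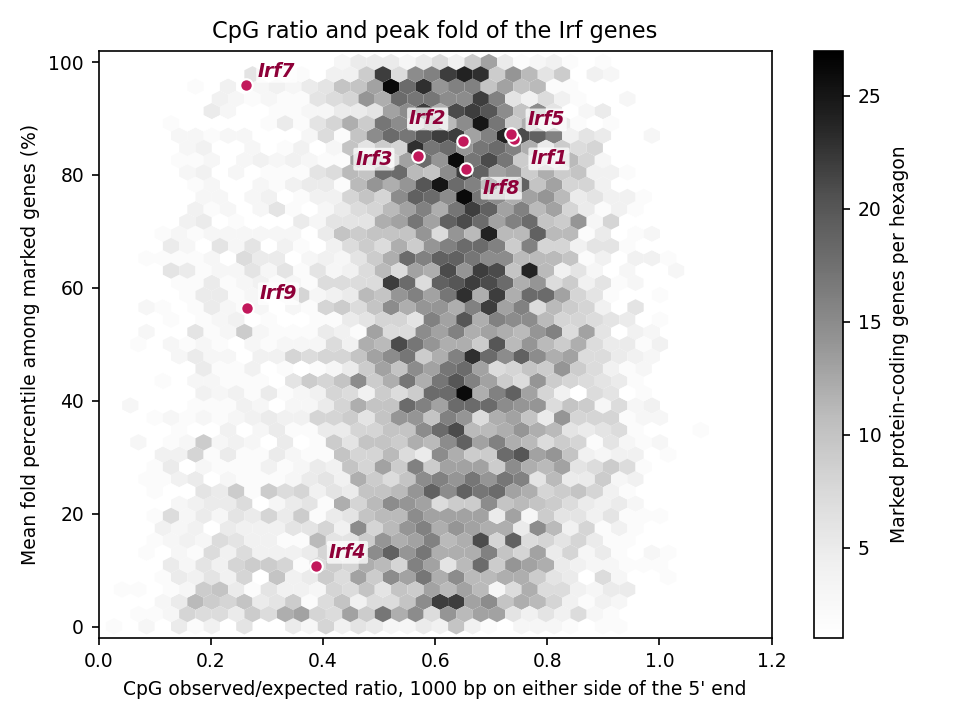
CpG observed/expected ratio within 1000 bp of the 5′ end against the mean fold percentile, with marked protein-coding genes as grey hexagons shaded by their number and the 8 genes as points. Irf7 sits at a ratio of 0.262 and a percentile of 95.9, Irf9 beside it in ratio at 56.5, and Irf4 at 0.388 and 10.7.

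The mark lay mostly in the transcribed direction. The share of domain length downstream of the 5′ end was 96.4% and 98.4% at Irf4 and 85.2% and 85.1% at Irf5. It was 82.8% and 80.3% at Irf8 and 69.2% and 80.3% at Irf9. These 4 genes and Irf7 have no start of another gene within 1000 bp of any of their own starts, and among the 6463 marked genes of that kind the median share was 73.6% in replicate 1 and 81.3% in replicate 2. Irf9 lay below the median in both replicates and Irf4, Irf5 and Irf7 above it in both. Of the 2 members with a start of another gene inside the domain, Irf3, beside Bcl2l12, had 61.9% and 60.1%, the lowest of the 8 genes in both replicates. Irf2, beside Gm16675, had 69.3% and 69.6%, and Irf9, with no such start, was lower than Irf2 in replicate 1 and higher in replicate 2. Irf1 had 83% and 98.9%. The coding gene Gm17334 starts on the opposite strand 3173 bp downstream of its 5′ end, next to an internal start of Irf1 and outside the domain. Cdhr5 and Phrf1 near Irf7, Gm43029 near Irf5, Gm18709 near Irf8 and Rnf31 near Irf9 start within 10 kb of a member's start but outside the windows.

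Among the promoter sequences the ISRE core, searched like all motifs on both strands, was found in 1 member, Irf2, at −241 to −233 from the RefSeq start, where the start base is 0. Counted by promoter, as the shares over all promoters are, it was in 1 of the 11 member promoters against 8.56% of all promoters. The ETS-IRF composite was likewise found at Irf2 alone, at −247 to −239, in 1 of 11 promoters against 8.24%. GAS was found in 3 members, Irf1 at −90, Irf2 at −224 and Irf8 at −171 and −153, or 3 of 11 promoters against 8.3%. The NF-kappaB site was found at Irf1 from −13 and at Irf2 from −17, or 2 of 11 promoters against 8.46%; the second match runs past the printed stretch. The core of the PU.1 site (GAGGAAG) occurred in Irf2 and in both promoters of Irf9, or 3 of 11 promoters against 13.6%. A match is a description of letters and was not tied to binding.

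The matches sat at different places relative to the peaks. The GAS matches of Irf8 lay in its upstream peak in both replicates. The GAS match of Irf1 lay in a gap in replicate 1 and outside the domain, which began at −23, in replicate 2. The ISRE core of Irf2 lay at the inner edge of the upstream peak in replicate 1 and in the 242 bp gap in replicate 2. Of general promoter elements, TATAAA was found at Irf4, Irf7 and Irf8, starting at −26, −29 and −31, or 3 of 11 promoters against 13.6%. The GC box (GGGCGG) was found in 7 members, all but Irf7, or 8 of 11 promoters against 35.7%. CCAAT was found in Irf1, Irf2 and Irf8, or 3 of 11 promoters against 37.4%. In the wider window of 1000 bp each way from the 5′ end the ISRE core was found in 3 members, Irf2, Irf3 and Irf7, against 46.3% of all coding genes.

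Within 10 kb of a start of the 8 genes there were 18 peaks in replicate 1, of which 5 lay outside the domains, and 18 in replicate 2, of which 2 did. The pair seen in both replicates were also in the pooled and the replicated list. The first had its summit at −6690 bp from the Irf1 5′ end in replicate 1, with widths of 1396 bp and 1177 bp and folds of 16.4 and 5.5, and it covered the start of the microRNA gene Mir7671. The second had its summit at −10544 bp from the Irf3 5′ end in replicate 1, with folds of 30.5 and 10.5, and covered the starts of Prmt1 and Gm15545 in replicate 1 and that of Gm15545 in replicate 2. The remaining 3, seen in replicate 1 only, were 1 peak upstream of Irf5 (403 bp, fold 4.86) and 2 upstream of Irf7 (416 and 370 bp, fold 4.48 each). A fold of 4.48 was shared by 202 peaks of that list.

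The genes around the family in the pathway were marked to unequal extents. All 16 kinases, adaptors and ligases that lead to IRF activation were marked, against 49.5% of all protein-coding genes. Their median width was 1903 bp and their median fold percentile 51.2. The widest were Myd88, the Toll-like receptor adaptor, with 3742 ± 204 bp, Ikbke, an IRF kinase, with 2932 ± 1550 bp, and Tbk1, the kinase of Irf3, with 2576 ± 135 bp (SD, n = 2 each). The Myd88 domain also held the start of Acaa1a in both replicates and cannot be assigned to Myd88 alone. Of 15 DNA-binding partners and cofactors 14 were marked, with a median width of 2305 bp and a median fold percentile of 29.5. The exception was Spib, a lymphoid and plasmacytoid relative of PU.1. The widest partners were Etv6 with 4278 ± 1327 bp, the acetyltransferase gene Ep300 with 3854 ± 99.7 bp and Irf2bp1, a corepressor of Irf2, with 3584 ± 433 bp (SD, n = 2 each). Starts of other genes, 1110025M09Rik and Gm23880 at Ep300 and Mypopos at Irf2bp1, lay inside these domains too.

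The listed interferon ligand genes carried no peak in their start windows. Ifnb1, Ifna1, Ifna2, Ifna4, Ifna5, Ifne, Ifnk and Ifng were unmarked in both replicates. Their CpG ratios ran from 0.0529 at Ifna1 to 0.327 at Ifng. Over all coding genes, 4.19% were marked at ratios up to 0.119 and 27.2% at ratios of 0.248 to 0.356. The 4 receptor genes were all marked, so that 4 of the 12 genes of this list were. The receptor genes had ratios of 0.531 to 0.631. Of all coding genes, 67.5% were marked at ratios of 0.474 to 0.556 and 78.4% at 0.628 to 0.695. Whether either group differed from genes with like ratios was not tested. Of the receptor genes, Ifngr2 had 3218 ± 1087 bp, Ifnar2 2840 ± 194 bp and Ifngr1 2564 ± 1271 bp (SD, n = 2 each). Their median fold percentile with Ifnar1 was 61.6. The median of the 8 Irf genes, 84.6, lay above the median of each of these 3 lists.

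**Figure D3:**
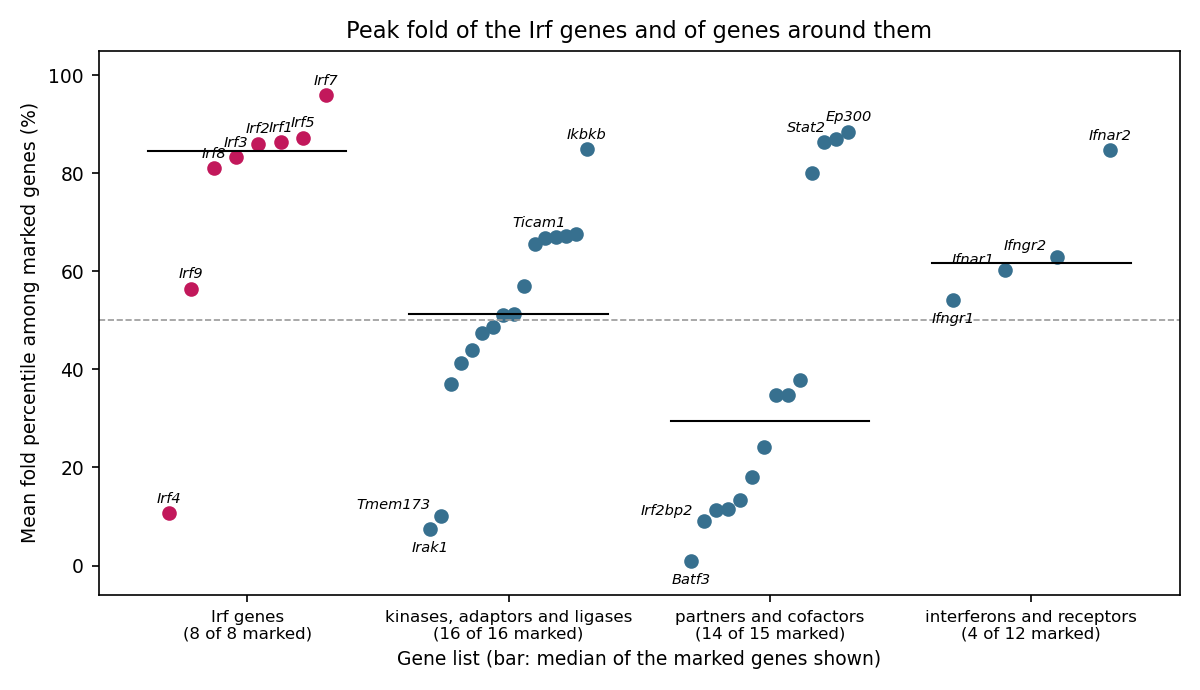
Mean fold percentile among marked coding genes of each marked gene in the family and in 3 pathway lists, with a bar for the median of each list and a dashed line at the median of all marked genes. Points are genes in ascending order, and labels name all 8 Irf genes but only the lowest and highest genes of the other lists. The Irf genes have a median of 84.6, with Irf9 and Irf4 apart from the others.

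Marked genes most like the widest and the narrowest member were found from the mean width percentile, the mean fold percentile and the CpG percentile over 2 replicates, by Euclidean distance. Nearest to Irf2 were B4galt1 at a distance of 3.59, Nemp1 at 4.24 and Brca1 at 4.37. B4galt1 had a domain of 4370 ± 128 bp (SD, n = 2), folds of 52.1 and 20.4 and a CpG ratio of 0.66. Nearest to Irf4 were Fam107b at 3.39, Slc43a3 at 3.44 and Csnk1e at 5.3. Fam107b had 1770 ± 1501 bp (SD, n = 2), a spread nearly as large as its mean, with folds of 17.2 and 7.83 and a CpG ratio of 0.333. These percentiles share the libraries and the genome sequence and describe likeness only.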

How the data were processed

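The members and gene lists were chosen with earlier results of these data known. Peaks were called by the authors, per the deposited provenance texts, on each replicate and on both together, in narrowPeak layout, on mm10 (per the labels). The aligner, the peak caller and cut-offs were not given in the sources used here. Each deposited peak carries the authors' fold (a ratio), its −log10 p and −log10 q values, a summit offset and a display score that was not used. Folds were used only within a list. Peaks were placed against GENCODE M21 starts with Python 3.11.15, numpy 2.4.6 and pysam 0.24.0; the genome was indexed with samtools 1.23.1, and figures used matplotlib 3.10.9. The joining and overlap code was tested on simulated peaks. An overlap of 1 bp sufficed. CpG and motif counts used the GRCm38.p6 sequence. The genes named were the 8 members, genes starting within 10 kb of one, the unmarked and 3 widest marked genes of each pathway list, markers that went against the label, and the 3 genes nearest to the widest and narrowest member. Prmt1 and Gm15545 were added after their values were seen, since a peak near Irf3 covers their starts. A gene of the partners list is not reported here. Other genes of the family were not analysed here.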

Additional observations from a re-analysis of the deposited data

How the results depend on the processing

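All 8 genes remained marked under each of 9 alternatives: the 5′ end alone, windows of 500 and 2500 bp, the replicated list, the pooled list, only 15000 peaks per list, taken by −log10 p, an overlap of 200 bp, and either replicate left out. The window of 2500 bp and leaving out a replicate only loosen the rule, so they could not lower the count. The pooled and the replicated list come from the same 2 libraries and are not independent of the main result. The median width of the 8 genes, 2692 bp, ranged from 2406 to 3140 bp over those 9 settings, no joining and joining within 3000 bp. Leaving out a replicate gave 2406 and 3092 bp. The order of widths and the 2 members of 4 kb or more changed with the joining, as given with those results. The CpG ratio of each member changed in a window of 500 bp each way from the 5′ end, and Irf3 moved above Irf2 and Irf8. The median fold percentile of 84.6 became 74.7 with the peak nearest to the 5′ end and 83.3 when ranked by −log10 p, and was 83.3 to 84.9 with a replicate left out. Members with the ISRE core rose from 1 to 3 in a window of 1000 bp each way from the 5′ end, a longer stretch. No paired analysis was possible because there was 1 group. Depth is unknown, the replicates may share an animal, and an unmarked gene is one without a called peak, not one shown to lack the mark.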
